A study of Mus musculus with 8 samples.

Results

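The histone lysine methylation enzymes described here are 38 mouse genes whose symbol on the array names a lysine methyltransferase or demethylase: the Kdm, Kmt, Setd and Prdm genes, Ehmt1, Ehmt2, Ezh1, Ezh2 and Suv39h2. The rule for membership reads the symbol and no measured value. The enzymes had 74 of the 25697 probes and 38 of the 16593 genes with a symbol. Enzymes that the array lists under other symbols fall outside the rule, so counts per class below cover only genes that match it. Some of those others, among them Dot1l, are described with the partner genes. Of the 38 genes, 27 had a probe with a detection p-value under 0.05 on at least 4 of 8 arrays and were tested; the other 11 were not. The arrays were Illumina MouseRef-8 v2.0 bead arrays, hybridized with total RNA of V6.5 cells, a mouse embryonic stem cell line. The medium for both groups was Knockout DMEM with fetal bovine serum. Embryonic stem cells also received LIF and 2i (inhibitors of GSK and MEK), and epiblast cells (EpiC in the labels) were made by withdrawing LIF and 2i for 3 days. The 4 wildtype arrays came from V6.5 subclones 1 to 4 (GRHL2 wildtype), and the 4 knockout arrays from GRHL2 knockout clones 1 to 4; each is called a replicate below. The labels do not say how the clones were made or which arrays were run together, and p-values measure the spread between these single-array samples.

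Methyl groups on histone lysines are written mostly by SET domain enzymes and erased by 2 unrelated kinds of demethylase, the flavin-dependent Kdm1 proteins and the Jumonji proteins. Methylation of lysine 4 of histone H3 (H3K4) marks promoters and enhancers in use, methylation of H3K27 is the mark of Polycomb repression, and trimethylation of H3K9 and H4K20 goes with heterochromatin. In pluripotent cells many developmental promoters carry both H3K4 and H3K27 methylation, and several of these enzymes are needed for embryonic stem cells to differentiate. GRHL2, the factor knocked out, is a grainyhead-like activator of epithelial genes.

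Epiblast genes were measured in both groups: Pou5f1, the core pluripotency factor, stood at 11.87 in wildtype and 12.12 in knockout (mean log2 normalized intensity, n = 4 each), Fgf5 at 9.93 and 10.06, and Dnmt3b at 14.35 and 14.21. Of 9 tested epiblast and pluripotency markers, Nanog fell by 1.03 on the log2 scale (limma adjusted p = 0.00158), Pou3f1 and Utf1 rose by 0.88 and 0.46 (adjusted p = 0.0145 and 0.0190), and 6 did not pass. Between 12414 and 13250 probes were detected per array. Grhl2 fell to 45.6% of wildtype (log2 change -1.13, SE 0.30, limma adjusted p = 0.0369), and its probe was still detected on all 4 knockout arrays. The labels do not place that probe relative to the altered part of the gene. The limma call was lost when any of 6 single arrays was left out, namely wildtype replicates 1, 2 and 4 and knockout replicates 2, 3 and 4 (adjusted p up to 0.0835). Knockout arrays were dimmer before normalization, at 72.3% of the wildtype mean intensity (exact permutation p = 0.0286, the smallest that 4 against 4 allows). Of 10 trophoblast markers 6 were measured, and their summed level was 9.93 to 12.25 on wildtype and 8.73 to 9.44 on knockout arrays (log2), with wildtype replicate 3 highest. Tfap2c and Krt18 passed, both lower on all knockout arrays (-2.62 and -1.60, limma adjusted p = 0.0249 and 0.0478). Wildtype replicate 3 enlarged both changes. It was at 10.86 for Tfap2c, with the other wildtype arrays at 7.59 to 8.09, and at 11.27 for Krt18, with the others at 8.93 to 9.16. Cdx2, Elf5, Hand1 and Plet1 were not detected on enough arrays. Of 10 primitive endoderm markers 4 were measured (10.17 to 10.59 in wildtype, 10.08 to 10.32 in knockout). Of these Lama1 rose by 0.91 and Col4a1 fell by 0.79 (limma adjusted p = 0.0418 and 0.0206), and the mean of the 4 log2 levels ran from 7.33 to 7.92 in wildtype and from 7.67 to 8.13 in knockout. Of 10 feeder fibroblast markers 3 were measured (10.73 to 11.19 in wildtype and 10.70 to 11.49 in knockout), while Col1a1, Col1a2 and Col3a1 were not. The part of these other cell types, and of the differing epiblast markers, in the values below was not tested. In bulk RNA, fewer cells of a type and less RNA per cell cannot be told apart. Genes of chromosome 6 were higher on wildtype replicate 3 than on the other wildtype arrays (median 0.40 on the log2 scale), and genes of chromosome 8 were lower on knockout replicate 1 than on the other knockout arrays (median -0.43). Ezh2, Kdm3a and Setd5 lie on chromosome 6 and Setd6 on chromosome 8, and their values are given with and without those arrays.

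With 1 probe per gene, 0 of the 27 tested enzymes passed the test between knockout and wildtype (limma, adjusted p under 0.05 over all 8830 genes), where 13.7% of all genes passed (6.55% higher and 7.17% lower in knockout). The smallest adjusted p among them was 0.0553, that of Kdm5b. An unadjusted p under 0.05 was found for 7 of the 27 (25.9%), beside 32.0% of all genes. Their changes ran from -0.61 (Kdm3a) to 0.60 (Kmt5c) on the log2 scale, with a median of 0.05 beside 0.01 over all genes. Of these changes 17 were positive and 10 negative (37.0%), where 48.6% of all genes had a negative change. The median size of a change was 0.19, beside 0.23 over all genes, and the median SE was 0.15 both for the enzymes and for all genes. The 95% interval of the change excluded a 2-fold difference for 25 of the 27 genes, all but Kdm3a and Kmt5c, and a 1.5-fold difference for 16. These bounds hold for quantile-normalized values. The 4 knockout and 4 wildtype values did not overlap for 6 of 27 (22.2%), a share near that of all genes, which was 23.2%. Of all genes, 12.4% were higher and 10.8% lower on every knockout array. The 6 enzymes were Kmt5c, Kdm5b, Setd3, Setd4 and Prdm4, higher on all knockout arrays, and Kdm3a, lower on all of them. All directions are those of quantile-normalized arrays. Without normalization between arrays the median change of all genes was -0.58 and the 5 higher enzymes read from -0.50 to -0.11; with median scaling these were -0.35 and from -0.27 to 0.12. Set against that median, 21 of the 27 enzymes kept the sign of their reported change, from which no median was taken. Kdm1a, Kdm8, Kmt5a, Kmt5b, Setd1a and Setd5, whose changes were 0.10 or less, turned. The reported change of Setd5 (0.0075) was already below the reported median of all genes (0.0134).

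**Figure D1:**
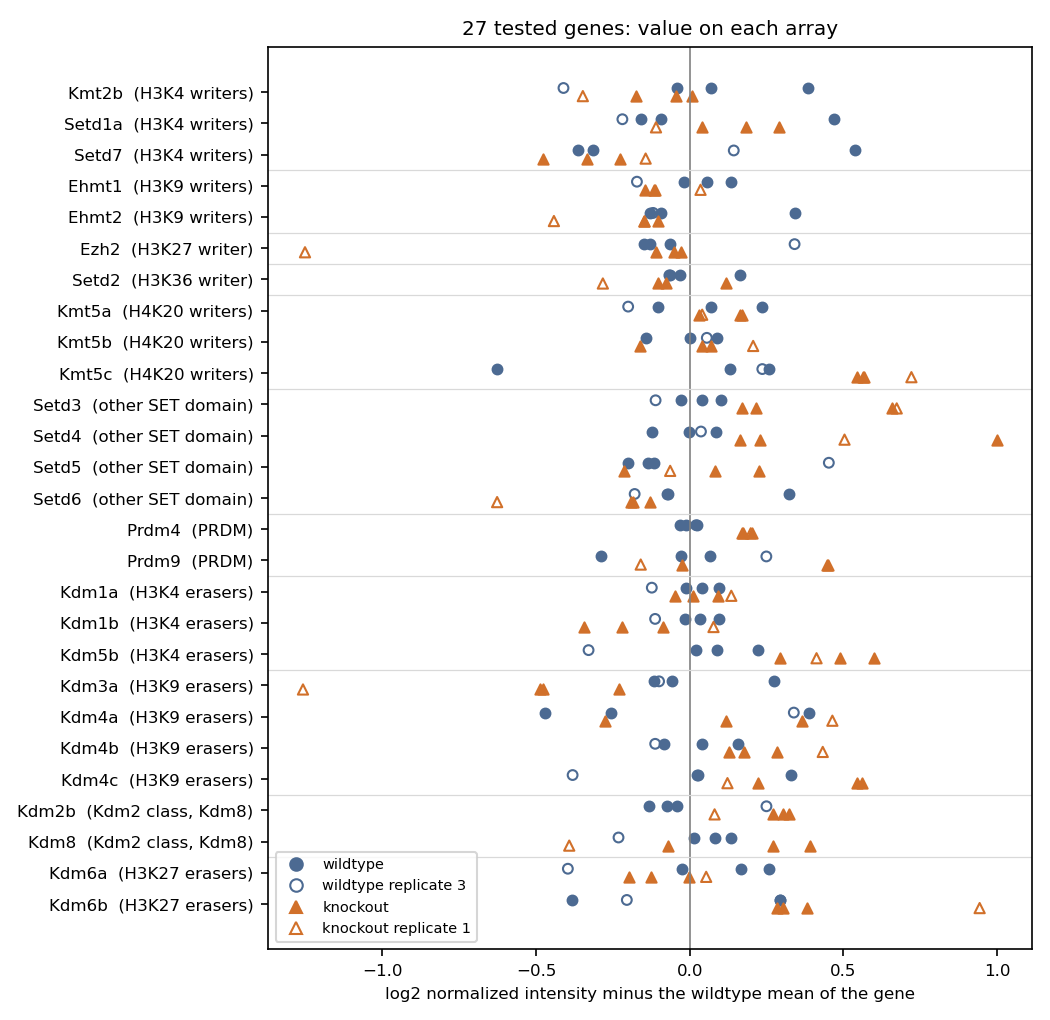
Log2 normalized intensity of the 27 tested enzymes on each array, minus the wildtype mean of the gene (x axis), with genes grouped by the lysine they write or erase (y axis); circles are the 4 wildtype and triangles the 4 knockout arrays, with wildtype replicate 3 and knockout replicate 1 open. The groups overlap for 21 genes, and the open triangles of Ezh2 (9.26 before centring) and Kdm3a (8.60) lie far left of the other knockout arrays.

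**Figure D2:**
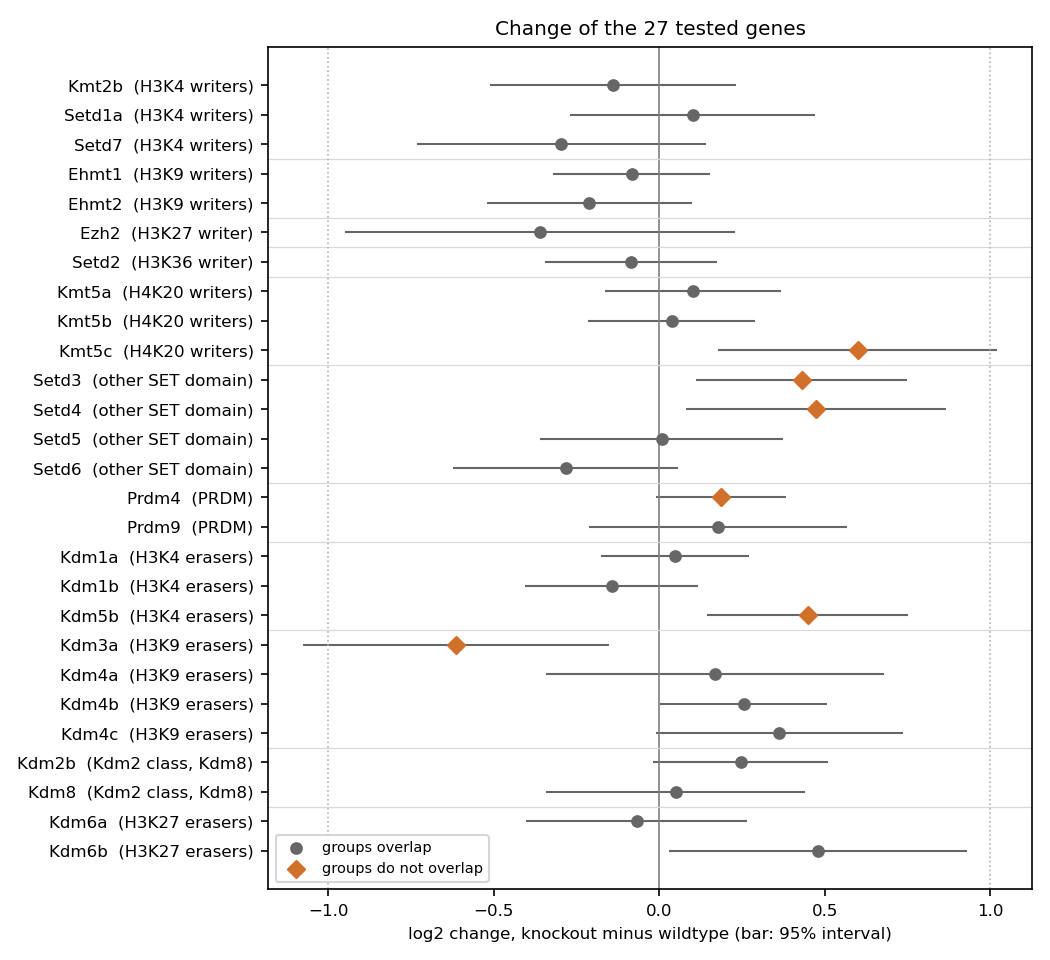
Log2 change of each tested enzyme, knockout minus wildtype (x axis), with its 95% interval from the limma fit (bars, n = 4 arrays a group); diamonds mark the 6 genes whose groups do not overlap, and dotted lines mark a 2-fold difference. Kmt5c (0.60) and Kdm3a (-0.61) have the intervals that cross those lines, and none of the 27 passed the adjusted threshold; without normalization between arrays the positive values read lower, as the median of all genes then moves by -0.58.

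Among H3K4 methyltransferases that match the symbol rule, 3 were tested and 0 passed. Setd1a, a catalytic subunit of the COMPASS complexes that trimethylate H3K4, was at 9.71, 9.14, 9.02 and 9.08 on wildtype replicates 1 to 4 and at 9.13, 9.42, 9.28 and 9.53 on the knockout arrays. The groups overlapped, with a change of 0.10 (95% interval -0.27 to 0.47, adjusted p = 0.711). Kmt2b, the enzyme of bivalent promoters in embryonic stem cells, gave -0.14 (-0.51 to 0.23, adjusted p = 0.597). Setd7, a monomethyltransferase with many non-histone substrates, gave -0.30 (-0.73 to 0.14, adjusted p = 0.323).

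Both H3K9 methyltransferases that match the symbol rule and were tested, Ehmt1 and Ehmt2, had overlapping groups. They work as the GLP and G9a heterodimer on H3K9 in euchromatin. Ehmt2 was at 9.08, 8.65, 8.62 and 8.61 in wildtype and 8.30, 8.59, 8.59 and 8.63 in knockout, so that 3 arrays of each group lay within 0.05 of each other and wildtype replicate 1 (high) and knockout replicate 1 (low) stood off. Its change was -0.21 (SE 0.14, adjusted p = 0.318), and -0.10 without wildtype replicate 1. Ehmt1 gave -0.08 (SE 0.11, adjusted p = 0.619) with the probe that stood for the gene; other Ehmt1 probes are described below. Suv39h2, which trimethylates H3K9 in constitutive heterochromatin, had 3 probes, of which 1 was detected on 2 wildtype arrays and the others on no array.

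Ezh2, the main catalytic subunit of Polycomb repressive complex 2 and the writer of H3K27 trimethylation, was at 10.45, 10.37, 10.85 and 10.38 in wildtype and at 9.26, 10.46, 10.48 and 10.40 in knockout. Knockout replicate 1 was alone in its low value, 1.19 below the mean of the other knockout arrays, a distance that 0.895% of all genes reached on that array in that direction. Over all arrays the change was -0.36 (SE 0.26, adjusted p = 0.373), without knockout replicate 1 it was -0.06 (adjusted p = 0.787), and without that array and wildtype replicate 3 it was 0.05 (adjusted p = 0.742). A second Ezh2 probe was low on the same array, at 4.51, and also on knockout replicates 3 and 4 (5.32 and 4.89), while knockout replicate 2 was at 6.51 and wildtype at 6.21, 6.37, 6.55 and 6.22. That probe was detected on 4 wildtype and 2 knockout arrays and changed by -1.03 (SE 0.35, adjusted p = 0.0782 over all probes). Its wildtype arrays alone met the detection filter, and knockout values below detection limit how far the size of this change can be read. Genes of chromosome 6 as a whole had a median shift of -0.16 on knockout replicate 1. The other PRC2 methyltransferase, Ezh1, had 2 probes and was detected by 1 of them on 2 knockout arrays and on no wildtype array.

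Setd2, which trimethylates H3K36 and travels with RNA polymerase II, gave -0.09 (95% interval -0.35 to 0.17, adjusted p = 0.644). Of the H4K20 methyltransferases, Kmt5a, which places the first methyl group in the cell cycle, and Kmt5b, which adds further ones, gave 0.10 and 0.04 (adjusted p = 0.588 and 0.845). Kmt5c, the enzyme of H4K20 trimethylation at heterochromatin, was at 8.92, 9.81, 9.78 and 9.68 in wildtype and 10.27, 10.12, 10.09 and 10.11 in knockout. All knockout values were above all wildtype values, and wildtype replicate 1 was far below the others. The change was 0.60 (SE 0.19, adjusted p = 0.0618), and 0.39 without wildtype replicate 1 (adjusted p = 0.0530). With no background correction, on the values the authors deposited, it passed (0.52, adjusted p = 0.0422).

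Of the SET domain genes with other or unsettled substrates, Setd3, an actin histidine methyltransferase, was at 7.80, 7.93, 7.72 and 7.87 in wildtype and 8.51, 8.49, 8.05 and 8.0 in knockout. The groups did not overlap, with a change of 0.43 (SE 0.14, adjusted p = 0.0716). Setd6, a methyltransferase of the NF-kappaB subunit RelA, was at 10.27, 9.87, 9.76 and 9.87 in wildtype and 9.32, 9.82, 9.75 and 9.76 in knockout. Knockout replicate 1 was lowest, 0.459 below the mean of the other knockout arrays, close to the median shift of chromosome 8 genes on that array. The change of Setd6 was -0.28 (adjusted p = 0.229) and -0.17 without that array (adjusted p = 0.420).

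Setd5, a SET domain gene mutated in intellectual disability, was at 8.45, 8.37, 9.02 and 8.43 in wildtype and 8.51, 8.65, 8.36 and 8.79 in knockout. Wildtype replicate 3 stood 0.604 above the other wildtype arrays, in the direction of the other genes of chromosome 6 on that array, and the groups overlapped. Its change was 0.01 (95% interval -0.36 to 0.37, adjusted p = 0.979), and 0.16 without that array (adjusted p = 0.404). A window at one of its annotated starts is shown because it alone, among 47 promoter windows of 33 of the enzyme genes, held a match to the loose grainyhead motif AACNNGTT, searched as letters on both strands (the motif is its own reverse complement). The windows run from 250 bases before to 50 after each start in RefSeq GRCm38.p6. The loose motif was in 4.20% of all 32851 windows, and the full palindrome AACCGGTT, which the loose motif contains, was in 0.146% of all windows and in 0 of the 47. A match is letters in a window and no binding was measured here. The Setd5 window, the one listed for that gene, lies at chr6:113104685-113104984 on the plus strand, with the match in capitals. It is inside the gene as RefSeq annotates it, downstream of the outermost start.
Setd5: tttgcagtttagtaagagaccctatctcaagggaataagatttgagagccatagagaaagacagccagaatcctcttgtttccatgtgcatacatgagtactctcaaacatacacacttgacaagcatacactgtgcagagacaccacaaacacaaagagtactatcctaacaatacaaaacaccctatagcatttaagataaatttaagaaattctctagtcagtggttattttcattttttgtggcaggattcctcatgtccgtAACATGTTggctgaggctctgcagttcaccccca

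The PRDM genes pair a divergent SET domain with zinc fingers, and only some are active on histones. Prdm4, which recruits an arginine methyltransferase, was at 10.21, 10.25, 10.25 and 10.20 in wildtype and 10.43, 10.40, 10.43 and 10.40 in knockout. The spread within each group was small (SD 0.03 and 0.02) and the groups were apart, yet the moderated test, which draws small variances toward those of other genes, gave 0.19 (SE 0.09, adjusted p = 0.176). Prdm4 passed with no background correction (0.17, adjusted p = 0.0450). Prdm9, the meiotic H3K4 methyltransferase that sets recombination sites, was dim but detected on all 8 arrays, with a change of 0.18 (95% interval -0.21 to 0.57, adjusted p = 0.515). Prdm14, which supports naive pluripotency and germ cell specification, Prdm1, the germ cell repressor Blimp1, and Prdm6, Prdm8, Prdm10 and Prdm16 were not detected by any of their probes on any of the 8 arrays. Absence of detection on these arrays gives only a bound, and no fold is given for them.

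Demethylases made up 11 of the 27 tested genes, 8 with a positive and 3 with a negative change, and 0 passed. The share with a negative change was 27.3%, beside 48.6% of all genes. This split holds for quantile-normalized values, and without normalization between arrays all the demethylases read negative. Kdm1a (LSD1), the flavin enzyme that silences enhancers when embryonic stem cells differentiate, was at 11.80, 11.85, 11.63 and 11.75 in wildtype and 11.89, 11.71, 11.85 and 11.77 in knockout. Its groups overlapped and its change of 0.05 had an interval of -0.18 to 0.27 (adjusted p = 0.779), which excludes a 1.5-fold difference on quantile-normalized values. Without normalization between arrays Kdm1a read -0.59, close to the median of all genes there. Kdm1b, its relative of oocytes, gave -0.14 (adjusted p = 0.426). Kdm5b, which removes H3K4 trimethylation, was at 7.01, 6.81, 6.46 and 6.88 in wildtype and 7.20, 7.28, 7.39 and 7.08 in knockout. All knockout values were higher, with a change of 0.45 (SE 0.14, adjusted p = 0.0553), the nearest of all the enzymes to the threshold; it passed when only genes detected on all 8 arrays were tested (adjusted p = 0.0454).

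Kdm3a, which removes mono- and dimethylation of H3K9, was at 10.14, 9.75, 9.76 and 9.81 in wildtype and 8.60, 9.38, 9.39 and 9.63 in knockout. All 4 knockout arrays were below all wildtype arrays, knockout replicate 1 by most, and the change was -0.61 (SE 0.21, adjusted p = 0.0755). Without knockout replicate 1 it was -0.40 (adjusted p = 0.0799), without wildtype replicate 3 -0.65 (adjusted p = 0.0883), and without both -0.43 (adjusted p = 0.0652). The Kdm4 enzymes of H3K9 and H3K36 trimethylation gave 0.17 (Kdm4a), 0.26 (Kdm4b) and 0.36 (Kdm4c), each with overlapping groups (adjusted p = 0.647, 0.151 and 0.167). Of the Kdm2 class, Kdm2b, which brings a variant Polycomb complex to CpG islands, was dim, detected on 1 wildtype and 3 knockout arrays, and gave 0.25 (adjusted p = 0.182). Kdm8, a Jumonji protein whose action on H3K36 is disputed, gave 0.05 (95% interval -0.34 to 0.44, adjusted p = 0.870).

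The H3K27 demethylases differed in sign and neither passed. Kdm6a (UTX), which removes H3K27 methylation at enhancers and promoters, was at 9.87, 9.59, 9.22 and 9.78 in wildtype and 9.67, 9.49, 9.61 and 9.42 in knockout, a change of -0.07 (95% interval -0.40 to 0.27, adjusted p = 0.787). The groups overlapped, and a second Kdm6a probe gave -0.29. Kdm6b (JMJD3), the inducible enzyme, was at 8.46, 9.14, 8.64 and 9.14 in wildtype and 9.79, 9.23, 9.15 and 9.13 in knockout. Knockout replicate 1 was highest and the groups overlapped, with a change of 0.48 (SE 0.20, adjusted p = 0.135) and of 0.32 without that array (adjusted p = 0.245), while its other probe gave -0.23. Kdm4d, Kdm5c and Kdm5d were not detected on enough arrays: Kdm4d on none, Kdm5d on 1 wildtype array, and each of the 3 Kdm5c probes on at most 2 arrays of a group.

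Probes of 1 gene often differed. The enzymes had 47 retained probes, and with every probe tested on its own 4 passed (8.51%), 2 higher and 2 lower in knockout, beside 13.2% of the 12037 retained probes with a symbol. None of the 4 stood for its gene. Of the 14 enzymes with several retained probes, 7 had probes that differed in sign (50%), beside 41.8% of all 2294 such genes. The platform table gives all probes of 1 gene as that gene's, and which exons or transcripts a probe reads was not analysed here.

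Setd4, a SET domain gene of quiescent stem cells, had probes that went opposite ways on quantile-normalized values. The probe that rose gave 0.10 with median scaling and -0.13 without normalization between arrays. Probe ILMN_1242024 was at 6.91, 6.69, 6.78 and 6.51 in wildtype and 6.36, 5.87, 6.17 and 5.85 in knockout, all knockout values lower. It fell by 0.66 on the log2 scale (SE 0.15, adjusted p = 0.0207 over all probes). Probe ILMN_2670361, which stood for the gene, was at 6.38, 6.47, 6.42 and 6.26 in wildtype and 6.89, 6.61, 6.55 and 7.38 in knockout, all knockout values higher, with a change of 0.47 (SE 0.18, adjusted p = 0.0991). The first minus the second was 0.34 ± 0.14 in wildtype and -0.79 ± 0.51 in knockout (SD, n = 4 each), a change between probes of 1.13, the widest spread among the 14 enzymes. The call of the first was lost when wildtype replicate 1 or 2 was left out, and likewise for knockout replicates 2 and 4 (adjusted p up to 0.0560).

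Ehmt1 probe ILMN_2757855 was at 5.99, 6.34, 6.36 and 6.61 in wildtype and 6.93, 7.36, 6.98 and 6.98 in knockout. All knockout values were higher, and it rose by 0.74 on the log2 scale (SE 0.16, adjusted p = 0.0180); the call held without each single array but not with median scaling (0.35, adjusted p = 0.117) or without normalization between arrays (0.12, adjusted p = 0.578). A second probe of Ehmt1 gave 0.35 (SE 0.14, adjusted p = 0.128), and the one that stood for the gene gave -0.08. Kmt5a probe ILMN_2658208 rose by 0.43 (SE 0.10, adjusted p = 0.0244), from 8.48 ± 0.09 to 8.91 ± 0.04 (SD, n = 4 each), while the other 3 Kmt5a probes gave -0.09, 0.08 and 0.10. This rise was not seen without normalization between arrays (-0.29) or with median scaling (-0.055), and the call ended when wildtype replicate 2 or 4, or one of knockout replicates 2 to 4, was left out (adjusted p up to 0.0651). Setd7 probe ILMN_2719333 was at 5.79, 6.13, 5.91 and 5.71 in wildtype and 5.48, 5.51, 5.47 and 5.10 in knockout. All knockout values were lower, and it fell by 0.50 (SE 0.14, adjusted p = 0.0418), in the direction of the other Setd7 probe. Its call held without knockout replicate 1 and was lost without each of the other arrays (adjusted p up to 0.109), and it was lost with no background correction (adjusted p = 0.110).

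**Figure D3:**
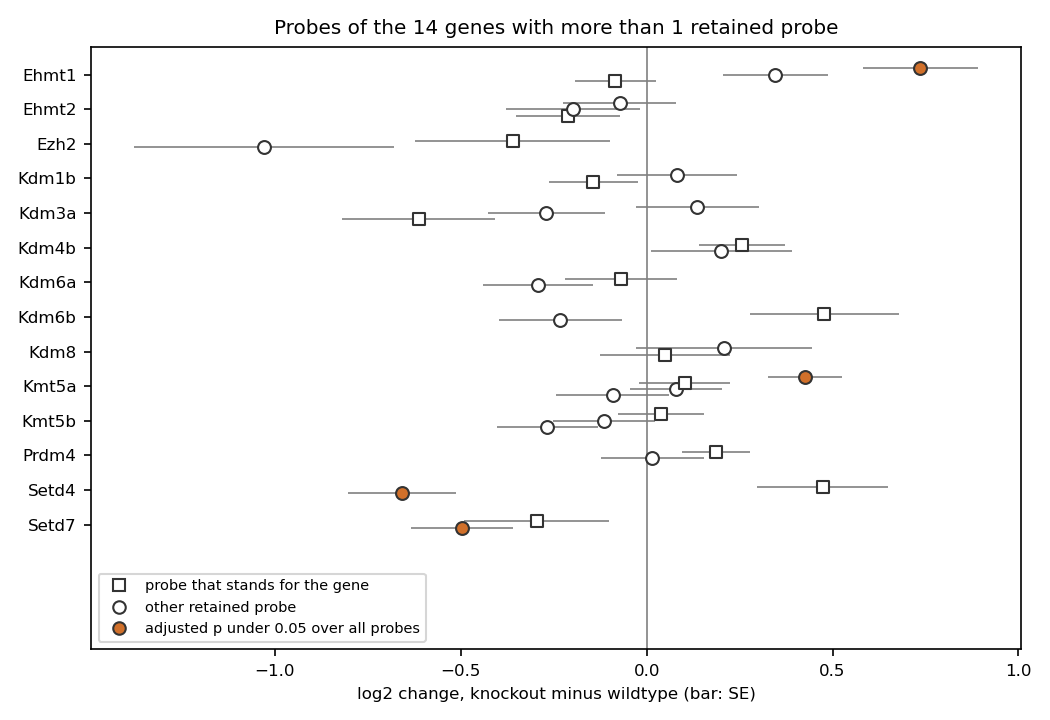
Log2 change, knockout minus wildtype (x axis), with SE (bars), of each retained probe of the 14 enzymes with more than 1; squares stood for the gene, and filled symbols had an adjusted p under 0.05 over all retained probes. The filled symbols are probes of Ehmt1 (0.74), Kmt5a (0.43; -0.29 without normalization between arrays), Setd4 (-0.66) and Setd7 (-0.50), and the squares of Ehmt1 and Setd4 lie on the other side of 0 from their filled probe. Without normalization between arrays the probe of the Setd4 square reads -0.13.

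**Figure D4:**
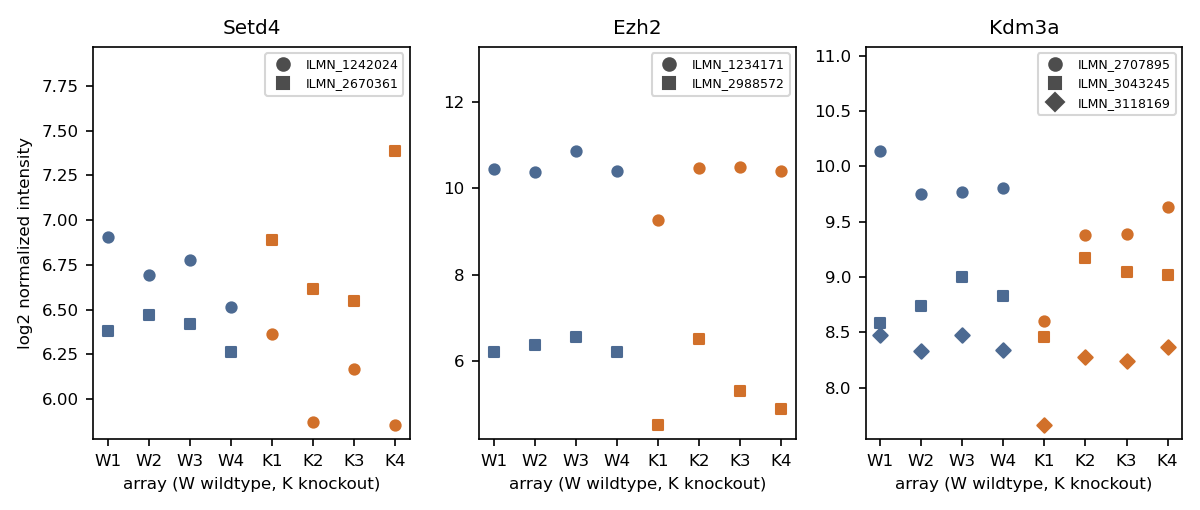
Log2 normalized intensity (y axis) on wildtype arrays 1 to 4 (W) and knockout arrays 1 to 4 (K) of each retained probe of Setd4, Ezh2 and Kdm3a, 1 symbol per probe. On these quantile-normalized values one Setd4 probe is lower and the other higher on all knockout arrays, and all probes of Ezh2 and Kdm3a are lowest on knockout replicate 1. Without normalization between arrays the higher Setd4 probe changes by -0.13.

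Single arrays stood off in several of these enzymes. All 3 Kdm3a probes were lowest on knockout replicate 1, by 0.86, 0.633 and 0.616 below the mean of the other knockout arrays, and the Kdm3a probe ILMN_3043245 read 0.14 higher in knockout (adjusted p = 0.612), against -0.61 and -0.27 for the other Kdm3a probes. A test for 1 array standing off the other 3 of its group (Dixon, 95% critical value) picked 11 of 54 gene groups of the enzymes (20.4%), beside 6.68% over all genes. Of these, 5 were on knockout replicate 1, 4 on wildtype replicate 1 and 2 on wildtype replicate 3.

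Among partner genes from a list of 57 (subunits of PRC2 and COMPASS, LSD1 partners, H3K9 and HP1 partners, and other lysine methyltransferases and demethylases), 43 were tested, 3 rose and 1 fell, where 13.7% of all genes passed; 12 of the 43 had an unadjusted p under 0.05, as did 32.0% of all genes. Atf7ip, the partner that stabilizes the H3K9 methyltransferase Setdb1, was at 10.08, 9.95, 10.01 and 9.91 in wildtype and 9.04, 9.41, 9.37 and 9.25 in knockout. It fell by 0.73 (SE 0.11, adjusted p = 0.00642), and the call held without each single array. It lies on chromosome 6, and without wildtype replicate 3 and knockout replicate 1 the change was -0.64 (adjusted p = 0.00989). Setdb1 itself gave -0.09 (adjusted p = 0.674). Ncoa6, a subunit of the Kmt2c and Kmt2d complexes, rose by 0.66 (SE 0.12, adjusted p = 0.0119), from 5.37 ± 0.11 to 6.03 ± 0.19 (SD, n = 4 each), while its other probe gave 0.30 (adjusted p = 0.219). The Ncoa6 change was 0.20 with no background correction and 0.33 with normexp at an offset of 50, 0.41 with median scaling, and 0.18 without normalization between arrays, where the call was lost (adjusted p = 0.376). Hdac1, the deacetylase of LSD1 complexes, rose by 0.48 (adjusted p = 0.0335), and Dot1l, the H3K79 methyltransferase, rose by 0.40 (adjusted p = 0.0445). The call of Hdac1 was lost when wildtype replicate 1, 2 or 4 was left out, and likewise for knockout replicates 3 and 4 (adjusted p up to 0.0863), that of Dot1l without any single array but knockout replicate 1 (adjusted p up to 0.115), and without normalization between arrays both read lower in knockout (-0.19 and -0.32). Of the other PRC2 subunits, Eed gave -0.32 (adjusted p = 0.136) and Suz12 0.14 (adjusted p = 0.309), and 0 of 7 tested passed. Setdb1, Eed and Suz12 are named here after their values were seen.

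In the authors' deposited table, whose fit the labels do not describe, 5 of the 74 probes of these enzymes had an adjusted p under 0.05 (6.76%), beside 8.62% of all probes. That table gave log2 changes of 0.32 for the Kmt5a probe ILMN_2658208 (adjusted p = 0.00256 there), 0.33 for the Ehmt1 probe ILMN_2757855, 0.17 for Prdm4, 0.23 for Kdm5b and -0.26 for the Setd4 probe ILMN_1242024. Of the 27 probes that stood for genes, the authors' deposited table called 2, Kdm5b and Prdm4 (7.41%), beside 18.2% of the 8830 probes that stood for tested genes. Its log2 changes are not plain differences of group means of the deposited normalized values: for Ezh2 the authors' deposited table gave -0.18, and those values gave -0.32.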

How the data were processed

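Arrays were grouped by the genotype label (4 wildtype, 4 knockout). Per the file headers, the authors deposited 4 measures per array and probe (25697 probes): average intensity, the error over its beads, a bead number, and the p-value of detection. From the values, intensities were neither background-corrected nor normalized. The authors also deposited log2 values, which equalled quantile-normalized log2 intensity with no background step (largest difference 4.97e-14), and a comparison table with log2 changes, p-values and moderated scores. The submitters' processing notes name limma. The series value table was not used.

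Here neqc (limma 3.58.1, R 4.3.3) took the background from detection p-values and added an offset of 16. A probe was retained if its detection p was under 0.05 on 4 or more arrays (12790 probes), and the one with the highest mean stood for each of 8830 genes. The test was limma's moderated, two-sided one (lmFit, eBayes), and p-values were adjusted over all genes by the Benjamini-Hochberg method. Symbols came from the platform annotation and chromosomes from RefSeq GRCm38.p6. Values are log2 normalized intensities and changes are knockout minus wildtype. The members and lists were chosen with earlier results of these data known. Named genes were Grhl2, enzymes by role, and partners past the threshold. Array values were given for enzymes whose groups did not overlap and for those on chromosomes 6 and 8. They were also given for some, not all, of the brightest of a role and of those with disagreeing probes. Ehmt2, which met none of these rules, was given array values too. The fit was tested on simulated data. Alternatives covered background, normalization, detection filter, probe choice, moderation, weights, brightness, clone number and left-out arrays. Same-numbered clones did not deviate together (correlations -0.08 to 0.05). The number of arrays limits the precision, and 0 per-sample columns were unmapped.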

Additional observations from a re-analysis of the deposited data

Results flagged for a closer look

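In these enzymes, 11 values stood off the other 3 arrays of their group by Dixon's 95% critical value, in 54 groups tested (20.4%). Chance flags about 1 group in 20, and in these data 6.68% of the groups of all genes were flagged. On knockout replicate 1 these were Ehmt2 at 8.30, Ezh2 at 9.26 and Setd6 at 9.32, which were low, and Kdm6b at 9.79 and Kmt5c at 10.27, which were high. On wildtype replicate 1 they were Ehmt2 at 9.08, Kdm3a at 10.14 and Setd2 at 6.48, which were high, and Kmt5c at 8.92, which was low. On wildtype replicate 3 they were Ezh2 at 10.85 and Setd5 at 9.02, both high and both on chromosome 6, whose genes were high on that array. Over all genes the same 3 arrays gave most such values: 354 genes on knockout replicate 1 (4.01%), 256 on wildtype replicate 3 (2.90%) and 193 on wildtype replicate 1 (2.19%), beside 53 to 122 on each of the other arrays. Of the 27 enzymes, 18.5%, 7.41% and 14.8% were flagged on those 3 arrays, in the same order.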

How the results depend on the processing

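The count of 0 among 27 tested enzymes stayed 0 in each leave-one-out fit, with the replicate block, with array brightness as a covariate, and with looser or no detection filters. It became 1 with detection on all 8 arrays (Kdm5b), 1 with the mean of all retained probes (Ehmt1, 0.33), 1 without both arrays with a shifted chromosome (Kdm2b), 2 with no background correction and on the authors' deposited normalized values (Kmt5c and Prdm4), 2 with normexp at an offset of 50 or with trend and robust moderation (Kmt5c and Kdm3a), 4 when every retained probe was tested on its own, and 6 with array weights (Kdm2b, Kdm3a, Kdm4c, Kdm5b, Kmt5c and Setd3). All genes that passed numbered 1211 of 8830 as reported, 1457 with no background correction and 1445 with normexp at an offset of 50. They numbered 1553 with trend and robust moderation, 2175 with array weights and 1743 without both arrays with a shifted chromosome. With the mean of all retained probes 1164 passed, and with detection on all 8 arrays 1238 of 7515. Higher enzyme counts alone therefore do not set the enzymes apart. The counts of enzymes, partners, enzyme probes and all genes were 13, 15, 20 and 3607 with median scaling, and 18, 24, 31 and 5771 without normalization between arrays, where all the called enzymes read lower. Of the 17 enzymes with a positive change, 12 read below 0 with median scaling and 17 without normalization. Turned values that passed the test either as reported or under the alternative were, with median scaling, Kdm8 (-0.43), Kmt5b (-0.44), Setd5 (-0.46), Dot1l (-0.083) and the Kmt5a probe ILMN_2658208 (-0.055), and, without normalization, Kdm1a (-0.59), Kdm4b (-0.45), Kdm8 (-0.66), Kmt5a (-0.61), Kmt5b (-0.67), Prdm4 (-0.50), Setd1a (-0.61), Setd5 (-0.70), Hdac1 (-0.19), Dot1l (-0.32) and that Kmt5a probe (-0.29). Against 578 higher and 633 lower genes in the values reported, median scaling gave 133 and 3474, and no normalization 36 and 5735. Of the 43 tested partners, 7 passed with trend and robust moderation, 8 with array weights, and 0 with brightness as a covariate. With that covariate 7 genes and 0 enzyme probes passed, and Hdac1 read -0.023. Every knockout array was dimmer than every wildtype array (mean intensity 447 to 571 against 668 to 744), so brightness and genotype can hardly be told apart. A count of 0 enzymes with this covariate, or with fewer arrays, therefore adds little to the 0 reported. Array weights gave 2175 genes and 9 enzyme probes. With the replicate block 671 genes, 2 partners and 2 enzyme probes passed; the numbers did not pair the samples. With 1 array left out, all genes ranged from 510 to 1440, partners from 2 to 4 and enzyme probes from 1 to 4. The cause of the other changes was not tested. Dim probes (Kdm2b, Kdm4a, Prdm9) are limited by signal over background. The same limit holds for the called Ncoa6 probe (mean 5.37 in wildtype) and the called Setd7 probe ILMN_2719333 (5.39 in knockout). It also holds for the second Ezh2 probe (5.31 in knockout).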
